A study of Mus musculus with 6 samples.

Results

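Cell junctions of the testis were followed through 10 genes in whole-organ RNA. They were chosen by name as the cadherin genes Cdh1, Cdh2, Cdh3 and Cdh11, their cytoplasmic partner Ctnnb1, the connexin gene Gja1, and the immunoglobulin adhesion genes Cxadr, Pvrl2 (now named Nectin2), Jam2 and Jam3. All 10 were among the 14998 genes of the deposited table, and all 10 passed the filter on low values, a mean of at least 1 FPKM over the 6 libraries (FPKM is a level scaled to gene length and library depth). RNA came from testes of male mice. The 3 knockout libraries were from animals with both alleles of Lats1 and of Lats2 floxed plus the Amh-cre transgene, and the 3 control libraries were from animals with the same floxed alleles and no Cre named in the labels. The Amh promoter confines Cre to Sertoli cells, which enclose the germ cells inside the testis cords, so germ, Leydig and other interstitial cells of the knockout are not targeted. LATS1 and LATS2 are the Hippo pathway kinases that restrain the coactivators YAP and TAZ. The comparison asks how testis RNA differs when both are targeted in Sertoli cells. No age is stated, and nothing says that each library is a different animal, so the p-values here reflect library-to-library spread, possibly technical.

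Cadherins join like cells through calcium-dependent contacts, and their tails bind beta-catenin and other catenins that link to actin. Connexins form gap junction channels between neighbouring cells. Nectins, junctional adhesion molecules and the coxsackie and adenovirus receptor are immunoglobulin-fold proteins that pair across cell borders. In the testis these proteins hold Sertoli cells to each other at the blood-testis barrier and to germ cells, and N-cadherin and connexin 43 are well-known components of Sertoli cell contacts.

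The reads listed in the table came to 7272864 to 10190616 per library, which is 74.8% to 80.9% of the library totals worked out from the FPKM. Control 3 differed most from its group, scoring 15.8 where controls 1 and 2 scored -7.85 and -8.26 on principal component 2, which held 2.99% of the variance. Lats1 had 12.9, 12.7 and 12.4 FPKM in the knockout libraries and 16.3, 15.3 and 15.4 FPKM in the control libraries. Lats2 had 17.8, 18.2 and 18.1 FPKM in the knockout libraries and 15.4, 14.5 and 17.0 FPKM in the control libraries, opposite to the loss its label names. These are whole-gene levels in a whole organ in which other cells are not targeted, and neither checks the deletion, so groups are called by their labels and every direction below is drawn from them. The sample labels name testes and the series' design text names adrenal glands. The Sertoli markers Sox9 and Dhh had 21.2 to 25.3 and 21.2 to 25.5 FPKM in the knockout libraries and 18.2 to 20.8 and 29.1 to 32.4 FPKM in the control libraries. They do not stand for their 12-gene list, in which 9 fell and 3 rose. Amh, Fshr and Rhox8, named after their values were seen, fell to means of 1.03, 0.111 and 0.239 FPKM in knockout libraries. Their control means were 66.1, 11.1 and 22.0 FPKM. The largest rise was that of Cldn11, with means of 29.9 FPKM in knockout and 9.71 FPKM in control libraries. The adrenal enzyme genes Cyp11b1 and Cyp21a1 had 9.98 to 19.0 and 10.47 to 13.5 FPKM in the knockout libraries and 1.71 to 7.43 and 10.4 to 14.7 FPKM in the control libraries. Of the 5 genes of that 8-gene adrenal list in the table, 2 were higher in knockout (Cyp11b1 and Mc2r), 2 were lower (Pnmt and Chga) and Cyp21a1 did not pass, and they summed to 33.8 to 40.2 FPKM in the knockout libraries and 41.3 to 48.0 FPKM in the control libraries. Mc2r, Pnmt and Chga are named after their values were seen. Mc2r had 7.85 to 10.2 FPKM in the knockout libraries and 3.24 to 5.45 FPKM in the control libraries, and Chga had 0.241 to 0.703 FPKM in the knockout libraries and 1.85 to 7.02 FPKM in the control libraries. Pnmt was listed at 0 in all 3 knockout libraries and had 12.7 to 26.2 FPKM in the control libraries. Cyp11b2, Th and Dbh were not analysed here.

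Most of these junction genes were higher in knockout testes. Under limma on log2(FPKM + 1) with Benjamini-Hochberg adjustment over all 13778 genes tested and a threshold of 0.05, 7 of the 10 rose, 2 fell and 1, Ctnnb1, did not pass. Of all genes tested, 35.2% rose and 33.7% fell, 68.9% in all. The 7 that rose were Cxadr, Jam2, Cdh3, Cdh2, Pvrl2, Jam3 and Cdh11, with log2 fold changes of 1.30 to 0.26, and the 2 that fell were Gja1 and Cdh1. Knockout and control libraries were fully separated for 9 of the 10 genes, as they were for 74.3% of all genes tested. The median log2 fold change of the 10 was 0.68, and that of all genes tested was 0.01. These are whole-organ levels, in which more cells of a type and more RNA per cell cannot be told apart.

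**Figure D1:**
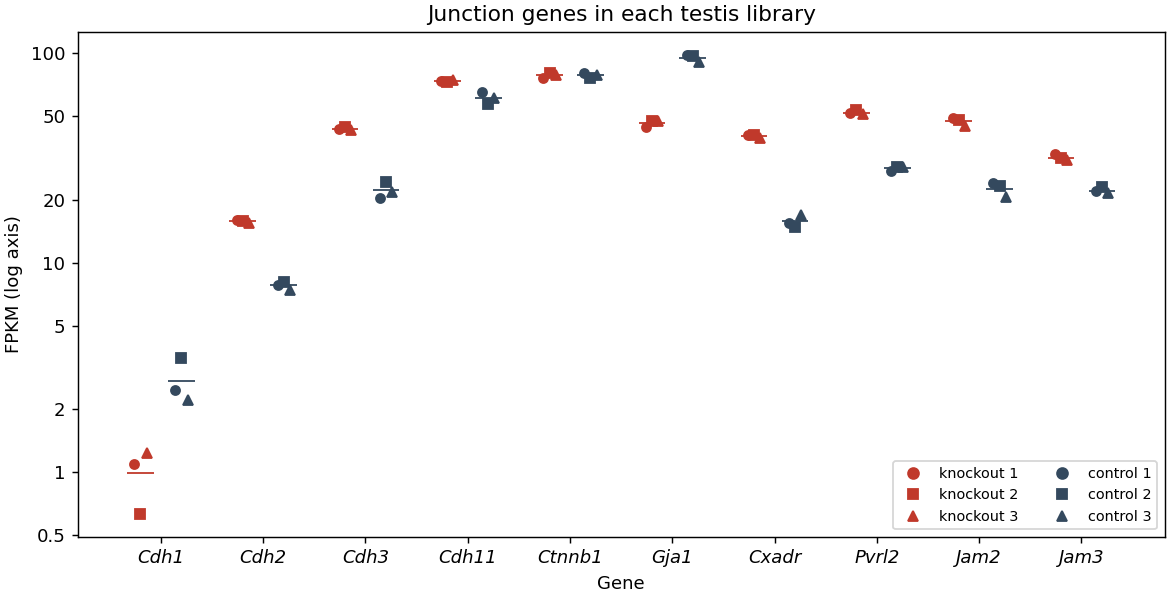
Level of each of the 10 genes (FPKM, log axis) in each library, with knockout libraries in red left of control libraries in dark blue, symbols for the replicate number and a line at the group mean. Gja1 and Cdh1 lie lower in knockout libraries, Ctnnb1 overlaps between the groups, and the other 7 genes lie higher in knockout libraries.

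The genome holds these genes on 6 chromosomes, with positions given here as deposited (GRCm38). Of the 10, 3 had a window in the set of RefSeq promoters used here (GRCm38.p6, from 250 bases before to 50 after a start site). They are shown because the 3 genes went 3 ways, with Pvrl2 higher, Gja1 lower and Ctnnb1 not past the test. Each is written 5′ to 3′ on the gene's strand, and capitals mark every match on either strand. The letters searched were GGAATG for TEAD, the factors through which YAP and TAZ act, then TGANTCA for the AP-1 family, then CAGCTG plus its close variant CAGGTG for E-boxes, then GGGCGG for the GC box and finally TATAAA for the TATA box, each with its reverse complement. No match overlapped another in the windows shown.
Pvrl2, chr7:19749524-19749823, minus strand: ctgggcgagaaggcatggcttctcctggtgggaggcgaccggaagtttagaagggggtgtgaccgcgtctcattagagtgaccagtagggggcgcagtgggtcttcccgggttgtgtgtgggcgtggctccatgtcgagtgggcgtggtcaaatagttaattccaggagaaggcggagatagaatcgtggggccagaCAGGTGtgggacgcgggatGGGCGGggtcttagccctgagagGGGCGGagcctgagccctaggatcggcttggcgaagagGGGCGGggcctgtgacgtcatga
Gja1, chr10:56377050-56377349, plus strand: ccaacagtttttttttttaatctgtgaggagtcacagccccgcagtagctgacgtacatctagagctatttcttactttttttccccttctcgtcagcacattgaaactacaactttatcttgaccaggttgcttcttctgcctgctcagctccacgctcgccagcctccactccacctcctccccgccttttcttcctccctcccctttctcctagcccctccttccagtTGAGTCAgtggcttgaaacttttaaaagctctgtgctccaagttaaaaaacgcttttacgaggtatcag
Ctnnb1, chr9:120933150-120933449, plus strand: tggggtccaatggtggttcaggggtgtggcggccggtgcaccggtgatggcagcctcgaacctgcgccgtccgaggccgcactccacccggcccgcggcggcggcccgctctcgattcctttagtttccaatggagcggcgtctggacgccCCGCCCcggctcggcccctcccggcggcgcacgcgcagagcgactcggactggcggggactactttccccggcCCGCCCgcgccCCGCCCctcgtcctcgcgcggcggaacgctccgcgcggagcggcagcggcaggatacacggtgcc
The Pvrl2 window was 62.7% G and C with 20 CG pairs, and held 1 E-box at -53 from the start site and 3 GC boxes. The Gja1 window was 47.7% G and C with 8 CG pairs, and its 1 match was the AP-1 sequence TGAGTCA at -19. The Ctnnb1 window was 75.3% G and C with 46 CG pairs, and held 3 GC boxes. Among 32851 RefSeq promoter windows of this length the median was 52.7% G and C, an AP-1 match was present in 7.81%, an E-box in 33.0%, a GC box in 35.7%, a TATA box in 13.6% and the TEAD core in 14.7%. The TEAD letters are in none of the 3 windows shown. The start sites of the Pvrl2 and Gja1 windows are those of the deposited table, whereas the Ctnnb1 window, the first of 2 in that promoter set, starts inside the gene as the table gives it (chromosome 9, 120929216 to 120960507). The second Ctnnb1 window (chr9:120933328-120933627), not shown, also starts inside the gene. It held GC boxes at -204, -193 and 28, a TATA box at -120 and no TEAD, AP-1 or E-box match.

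Among the cadherin genes, 3 rose and 1 fell. Cdh2 (ENSMUSG00000024304, chromosome 18, 16588877 to 16809246), which encodes N-cadherin, had 15.96, 15.9 and 15.4 FPKM in knockout libraries and 7.86, 8.12 and 7.44 FPKM in control libraries. Every knockout library lay well above every control library, 2.02-fold in the means (log2 fold change 0.93, SE 0.05, limma adjusted p = 7.33e-07). Cdh3 (ENSMUSG00000061048, chromosome 8, 106510913 to 106556908), the gene of P-cadherin, first described in placenta, had 43.5, 44.6 and 43.2 FPKM in knockout libraries and 20.4, 24.2 and 21.9 FPKM in control libraries. It rose 1.97-fold (log2 0.95, SE 0.06, limma adjusted p = 1.72e-06), with the controls more spread (8.56% coefficient of variation) than the knockouts (1.76%).

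Cdh11 (ENSMUSG00000031673, chromosome 8, 102632995 to 102785111) encodes a cadherin of mesenchymal cells and was the highest of the 4. It had 73.9, 72.9 and 74.6 FPKM in knockout libraries and 65.6, 57.3 and 61.2 FPKM in control libraries, a small rise of 1.202-fold without overlap (log2 0.26, SE 0.05, limma adjusted p = 0.00211). Cdh1 (ENSMUSG00000000303, chromosome 8, 106603351 to 106670246), the E-cadherin gene, which in the mouse testis marks undifferentiated spermatogonia, was the lowest of the 4. It had 1.10, 0.633 and 1.23 FPKM in knockout libraries and 2.46, 3.50 and 2.22 FPKM in control libraries, 2.76-fold lower in knockout (log2 -0.90, SE 0.16, limma adjusted p = 0.00106). Those levels rest on 62, 32 and 64 recovered reads in knockout libraries and 107, 218 and 123 in control libraries, against at least 530 reads per library for each of the other 9 genes. Its spread was the widest of the 10, at 31.9% in knockout and 24.9% in control libraries, where the other 9 genes had 1.14% to 4.76% in knockout and 2.62% to 8.56% in control libraries. Cdh1 averaged 0.989 FPKM in knockout libraries and passed the filter on low values through its control levels. The log2(FPKM + 1) scale understates the change of a gene this low, and the authors' deposited table gives it a log2 fold change of -1.43.

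The balance between cadherins differed within each library, in ratios of FPKM that library scaling cannot move. The ratio of Cdh2 to Cdh1 was 14.5, 25.1 and 12.5 in knockout libraries and 3.19, 2.32 and 3.35 in control libraries. Every knockout ratio exceeded every control ratio, and knockout 2, with the fewest Cdh1 reads, was the highest. The ratio of Cdh11 to Cdh2 ran the other way, at 4.63, 4.59 and 4.83 in knockout libraries and 8.35, 7.06 and 8.23 in control libraries. The 4 genes summed to 134 FPKM in each knockout library and to 96.4, 93.1 and 92.7 FPKM in control libraries. Of that sum Cdh11 made up 54.9% ± 0.552 in knockout and 65.2% ± 3.35 in control libraries, and Cdh3 32.6% ± 0.622 in knockout and 23.6% ± 2.39 in control libraries (SD, n = 3 each). The share of Cdh2 was 11.7% ± 0.226 in knockout and 8.30% ± 0.371 in control libraries, and that of Cdh1 was 0.737% ± 0.234 in knockout and 2.90% ± 0.744 in control libraries. Cdh3 and Cdh1 are neighbours, with 46442 bases and no other gene of the table between them, and moved in opposite directions.

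**Figure D2:**
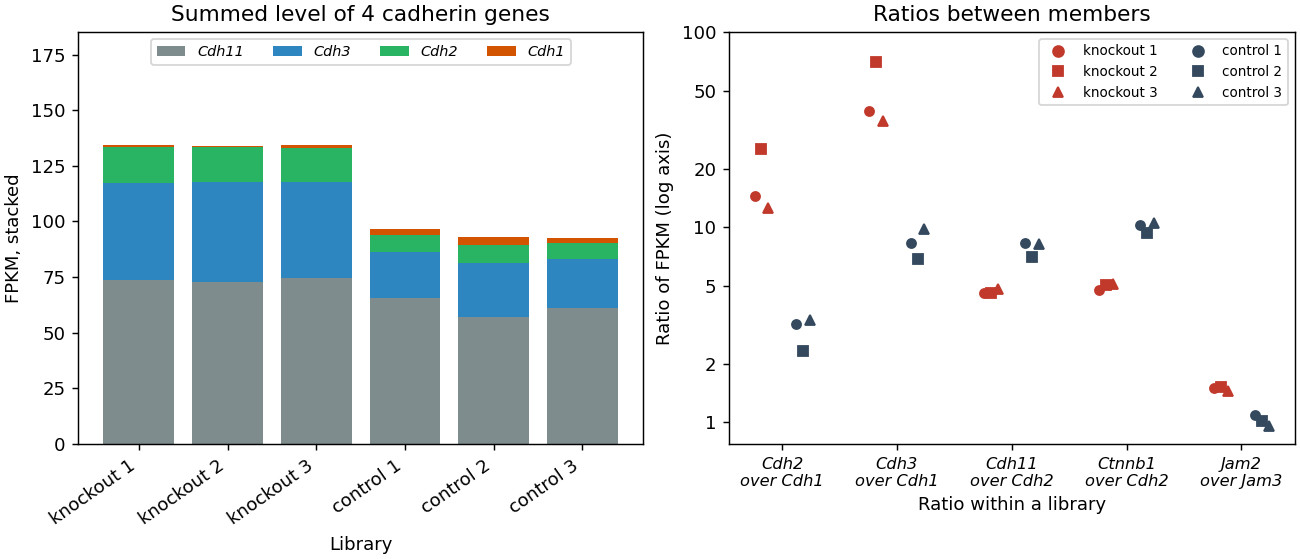
Left, the levels of Cdh11, Cdh3, Cdh2 and Cdh1 stacked for each library (FPKM), with the 3 knockout libraries left of the 3 control libraries. Right, ratios of FPKM between pairs of genes within a library (log axis), knockout in red left of control in dark blue, where the groups do not overlap for any of the 5 ratios.

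Of 15 other classical cadherin genes, 7 were in the table and 3 were tested, and all 3 fell. Cdh5, the VE-cadherin gene of endothelium, had 32.4 ± 1.36 FPKM in knockout and 44.9 ± 4.67 FPKM in control libraries (SD, n = 3 each, limma adjusted p = 0.000539). Of the 6 endothelial markers 2 rose, 1 fell, which was Cdh5 itself, and 3 did not pass. The 2 that rose, named after their values were seen, were Emcn, with 10.8 ± 0.632 FPKM in knockout and 4.13 ± 0.366 FPKM in control libraries, and Kdr, with 23.8 ± 1.84 FPKM in knockout and 16.5 ± 0.217 FPKM in control libraries. Pecam1 had 21.03 to 25.3 FPKM in knockout and 20.4 to 20.98 FPKM in control libraries and did not pass (adjusted p = 0.0658). Cdh6 had 1.52 ± 0.105 FPKM in knockout and 2.30 ± 0.218 FPKM in control libraries. Cdh24 had 2.91 ± 0.112 FPKM in knockout and 3.63 ± 0.441 FPKM in control libraries (limma adjusted p = 0.0428). Its call was lost without control 1 (adjusted p = 0.122), control 3 (0.110), knockout 1 (0.0713), knockout 2 (0.110) or knockout 3 (0.0899), and with limma-voom on recovered reads (0.0558).

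Ctnnb1 (ENSMUSG00000006932, chromosome 9), which encodes beta-catenin, the partner that cadherin tails share and also the coactivator of WNT signalling, did not follow the cadherins. It had 76.0, 80.2 and 79.2 FPKM in knockout libraries and 80.9, 76.1 and 78.7 FPKM in control libraries. The groups overlapped, and the 95% interval of the log2 fold change ran from -0.10 to 0.10 (estimate -0.00, limma adjusted p = 0.974), so a change in either direction of more than that lies outside it. The ratio of Ctnnb1 to Cdh2 was 4.76, 5.05 and 5.14 in knockout libraries and 10.3, 9.38 and 10.6 in control libraries.

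Of 15 other genes of the cadherin-bound plaque, 14 were tested, and 7 rose, 3 fell and 4 did not pass, with a median log2 fold change of 0.28. Vcl, which encodes vinculin, had 74.4 ± 2.92 FPKM in knockout and 33.9 ± 1.70 FPKM in control libraries (limma adjusted p = 2.86e-07). Jup, the gene of plakoglobin, a close relative of beta-catenin that also serves desmosomes, had 17.4 ± 0.997 FPKM in knockout and 7.21 ± 0.749 FPKM in control libraries. Mllt4, the gene of afadin, which couples nectins to actin, had 24.9 ± 0.0673 FPKM in knockout and 14.0 ± 0.473 FPKM in control libraries. In the desmosome list 5 of 6 tested genes rose and 1 fell, the plakophilin gene Pkp3, named after its values were seen (0.171 to 0.337 FPKM in knockout and 1.69 to 1.84 FPKM in control libraries). Pkp3 passed the filter on low values only through its control levels. Perp rose to 56.3 ± 3.65 FPKM in knockout libraries, against 5.58 ± 0.449 FPKM in control libraries, the desmoglein gene Dsg2 to 13.7 ± 1.12 in knockout against 3.45 ± 0.462 FPKM in control libraries, and the plakophilin gene Pkp2 to 15.2 ± 0.747 in knockout against 6.57 ± 0.261 FPKM in control libraries (SD, n = 3 each).

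Gja1 (ENSMUSG00000050953, chromosome 10, 56377300 to 56390419), the gene of the gap junction protein connexin 43, fell in knockout testes. It had 44.5, 47.4 and 47.4 FPKM in knockout libraries and 98.1, 97.5 and 91.2 FPKM in control libraries. Every knockout value lay far below every control value, 2.06-fold in the means (log2 -1.03, SE 0.05, limma adjusted p = 3.48e-07). In order of mean level Gja1 was gene 691 of the table in knockout and gene 52 in control libraries. Over the 9 connexin genes of the table the summed level was 71.9, 73.5 and 75.3 FPKM in knockout libraries and 130, 129 and 128 FPKM in control libraries, and Gja1 held 63.1% ± 1.31 of that sum in knockout and 74.2% ± 2.33 in control libraries.

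Of 22 other connexin and pannexin genes, 9 were in the table and 6 were tested, with 2 higher, 2 lower and 2 not past. Gja5, the connexin 40 gene, had 6.45 ± 0.411 FPKM in knockout and 3.03 ± 0.691 FPKM in control libraries (limma adjusted p = 0.000168), and Panx1, a pannexin channel gene, had 13.6 ± 0.288 FPKM in knockout and 9.48 ± 0.343 FPKM in control libraries (adjusted p = 3.03e-05). Gjb2, the connexin 26 gene, had 0.169, 0.150 and 0.147 FPKM in knockout libraries and 2.36, 2.53 and 3.26 FPKM in control libraries (adjusted p = 3.30e-06). It passed the filter on low values only through its control levels.

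The immunoglobulin adhesion genes all rose. Cxadr (ENSMUSG00000022865, chromosome 16, 78301496 to 78359785), the gene of the coxsackie and adenovirus receptor, had 40.8, 40.6 and 39.4 FPKM in knockout libraries and 15.5, 14.9 and 17.0 FPKM in control libraries. Its rise of 2.54-fold was the largest of the 10 genes on the log2(FPKM + 1) scale, and the groups stood far apart (log2 1.30, SE 0.05, limma adjusted p = 1.50e-07). Pvrl2 (ENSMUSG00000062300, chromosome 7, 19716644 to 19749573) encodes nectin-2, which Sertoli cells carry at contacts with spermatids. It had 51.9, 53.4 and 51.1 FPKM in knockout libraries and 27.4, 28.6 and 28.7 FPKM in control libraries, 1.85-fold higher in knockout with a spread of under 3% in either group (log2 0.86, SE 0.04, limma adjusted p = 2.97e-07).

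Jam2 and Jam3 encode JAM-B and JAM-C, partners that bind each other, in the mouse testis JAM-B on Sertoli cells and JAM-C on spermatids. Jam2 (ENSMUSG00000053062, chromosome 16, 84774123 to 84825928) had 49.2, 48.3 and 44.9 FPKM in knockout libraries and 24.0, 23.2 and 20.7 FPKM in control libraries. The groups did not overlap, and the mean was 2.10-fold higher in knockout (log2 1.04, SE 0.06, limma adjusted p = 1.29e-06). Jam3 (ENSMUSG00000031990, chromosome 9, 27097385 to 27155421) had 33.0, 31.7 and 30.9 FPKM in knockout libraries and 22.0, 22.9 and 21.5 FPKM in control libraries, a smaller rise of 1.44-fold (log2 0.50, SE 0.04, limma adjusted p = 1.08e-05). The pair stood at a ratio of Jam2 to Jam3 of 1.49, 1.53 and 1.45 in knockout libraries and 1.09, 1.01 and 0.961 in control libraries. On the opposite strand the gene model Gm48796 covers 36.2% of the Jam3 exon bases, Ulk4 covers 14.6% of those of Ctnnb1, and Btg3 and Gm49590 cover 9.46% of those of Cxadr. Whether the counting used strand is not given in the sources used here, so part of these reads could belong to the partner, which for Ulk4 and Btg3 had at most 1.31 and 2.08 FPKM in any library.

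**Figure D3:**
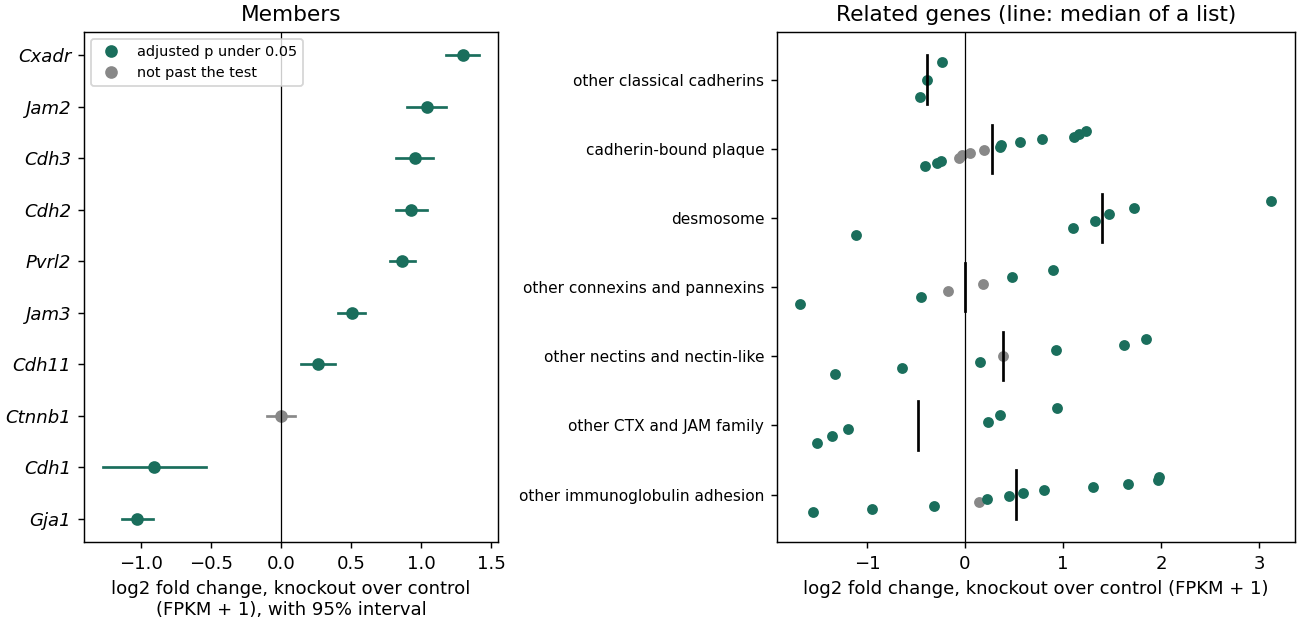
Left, log2 fold change of each of the 10 genes, knockout over control on the FPKM + 1 scale, with its 95% interval. Right, the same value for each tested gene of 7 lists of related genes, with a line at the list's median, where grey points did not pass the test at an adjusted p of 0.05.

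Relatives of the immunoglobulin genes moved in both directions. Among 7 tested nectin and nectin-like genes 4 were higher, 2 lower and 1 not past, with a median log2 fold change of 0.39. Pvrl1, the nectin-1 gene, fell to 3.44 ± 0.307 FPKM in knockout libraries, against 10.1 ± 0.717 FPKM in control libraries (limma adjusted p = 1.29e-06), the direction opposite to Pvrl2. Cadm1 and Cadm4, nectin-like adhesion genes, had 19.3 ± 0.324 and 62.4 ± 2.26 FPKM in knockout libraries and 4.64 ± 0.290 and 19.6 ± 1.501 FPKM in control libraries. Among 6 tested relatives of Cxadr and the JAMs 3 rose and 3 fell (median -0.48). F11r, the JAM-A gene, had 61.4 ± 1.08 FPKM in knockout and 31.5 ± 0.212 FPKM in control libraries, whereas Igsf11 had 3.61 ± 0.650 FPKM in knockout and 10.7 ± 0.508 FPKM in control libraries. Vsig1 had 0.0586, 0 and 0.128 FPKM in knockout libraries and 1.48, 2.31 and 2.33 FPKM in control libraries. The remaining immunoglobulin adhesion list held 12 tested genes, of which 8 were higher, 3 lower and 1 not past (median 0.52). Bcam, a laminin receptor gene, had 65.2 ± 1.33 FPKM in knockout and 15.99 ± 1.41 FPKM in control libraries, a leukocyte adhesion pair, Icam1 and Vcam1, had 15.8 ± 0.725 and 22.7 ± 0.999 FPKM in knockout libraries and 3.26 ± 0.424 and 6.51 ± 0.567 FPKM in control libraries (SD, n = 3 each). Counted once each, 54 related genes were tested, of which 29 rose and 17 fell, and their median was 0.30. Of those that fell, Cadm3, Igsf5, Vsig1, L1cam, Nfasc and Nrcam averaged 0.0620 to 0.964 FPKM in knockout libraries. They passed the filter on low values only through their control levels, as did Pkp3 and Gjb2. Their lower calls, and the medians that include them, lean on that filter.

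Markers of several testis cell types differed between the groups in the same libraries. Of 7 macrophage genes in the table all 7 rose, with a summed level of 245.9 to 288 FPKM in knockout libraries and 28.5 to 29.8 FPKM in control libraries. All 6 mesothelial genes rose (198.9 to 216 FPKM in knockout and 38.3 to 38.5 FPKM in control libraries), and all 6 Leydig genes fell (297 to 339 FPKM in knockout and 660 to 748 FPKM in control libraries). Of 12 Sertoli genes 9 fell and 3 rose (295 to 320 FPKM in knockout and 462 to 490 FPKM in control libraries), and of 6 fibroblast genes 4 fell and 1 rose (284 to 301 FPKM in knockout and 335 to 401 FPKM in control libraries). Of 6 endothelial genes 2 rose and 1 fell, and of 5 peritubular myoid genes 2 rose and 2 fell. The endothelial and the myoid sums overlapped between the groups, at 100.2 to 114 and 124 to 143 FPKM in knockout libraries and 96.9 to 105 and 110 to 128 FPKM in control libraries. Of 5 tubular epithelium genes 3 rose and 2 fell (86.5 to 98.4 FPKM in knockout and 47.9 to 52.4 FPKM in control libraries). Keratin genes made up most of that sum, with Krt18 at 69.7 and Krt8 at 15.8 FPKM in knockout libraries and 24.0 and 9.16 FPKM in control libraries. The 2 that fell, Epcam and Pax8, had means of 4.94 and 0.558 FPKM in knockout libraries and 14.5 and 1.53 FPKM in control libraries. These 4 genes are named after their values were seen. Among the marker genes called, Rhox8, Fshr, Pnmt, Chga and Pax8 passed the filter on low values only through their control levels. Cldn4 and Cd14, also named after their values were seen, passed it only through their knockout levels. Those 2 had means of 1.54 and 24.4 FPKM in knockout and 0.728 and 0.912 FPKM in control libraries. The calls of these genes in the marker counts lean on that filter. Every gene of the table exceeded 1 FPKM in at least 1 library. A marker gene at 0 in all 6 libraries could therefore not appear in these counts. The part of these differences in the 10 junction genes was not tested.

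Germ cell markers were mostly lower in knockout testes. Of 10 tested germ cell genes 6 fell, 3 rose and 1 did not pass, and the 11 in the table summed to 124, 86.6 and 124 FPKM in knockout libraries and to 173, 171 and 173 FPKM in control libraries. The 3 that rose, named after their values were seen, were Stra8, Etv4 and Dmrt1. They had means of 15.6, 7.87 and 35.8 FPKM in knockout libraries and 1.58, 2.90 and 25.5 FPKM in control libraries. Dmrt1 had the largest knockout mean of the 11, so the germ cell sum leans on a gene that rose. Gfra1 had 0.727 to 1.16 FPKM in knockout and 1.07 to 1.74 FPKM in control libraries and did not pass (limma adjusted p = 0.0807). Ddx4, an RNA helicase gene of the germline, had 19.2, 11.7 and 20.3 FPKM in knockout libraries and 47.2, 42.3 and 51.5 FPKM in control libraries, and Dazl, a germline RNA-binding gene, had 25.7, 13.4 and 27.1 FPKM in knockout libraries and 59.8, 54.3 and 50.5 FPKM in control libraries. Knockout 2 was the lowest library for Cdh1, on 32 recovered reads, and for Ddx4 and Dazl. The controls did not follow that order: control 2, the highest for Cdh1, was the lowest control for Ddx4 and for the germ cell sum and lay between the others for Dazl. The part of germ cell number in the Cdh1 level was not tested. None of the other 9 junction genes had more than 4.76% variation among the knockout libraries, but they also had more reads. Read counting alone gives 13.8% for Cdh1 in those libraries and at most 3.27% for each of the other 9.

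**Figure D4:**
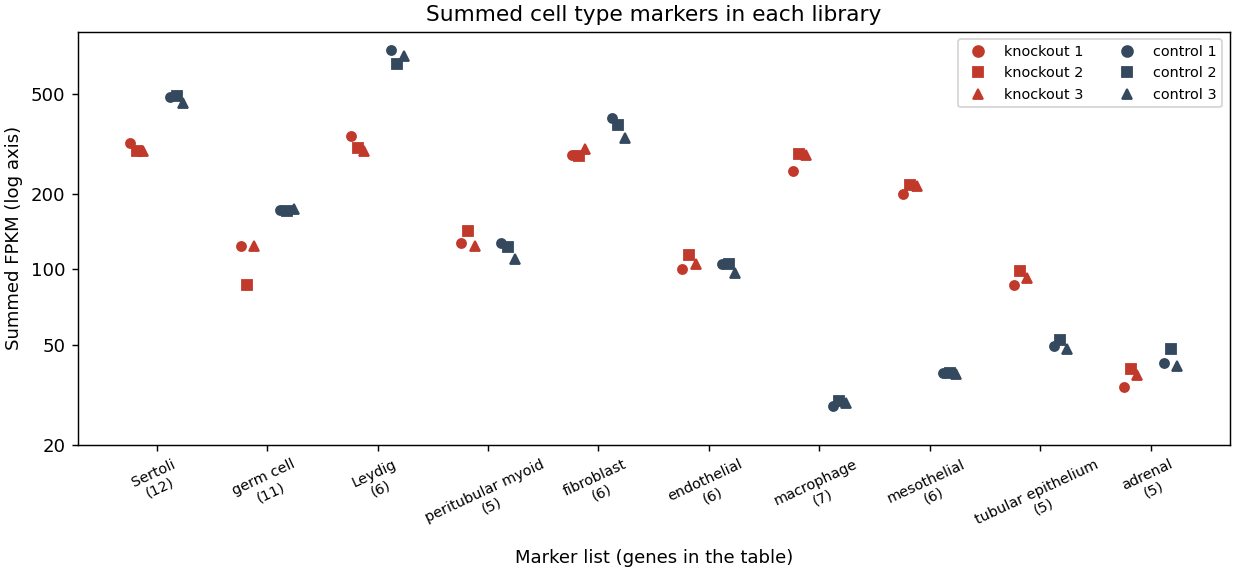
Summed FPKM (log axis) of the marker genes of each cell type in each library, knockout in red left of control in dark blue, with the number of genes in the table under each name. Macrophage, mesothelial and tubular epithelium sums lie higher in knockout libraries, Sertoli, germ cell, Leydig, fibroblast and adrenal sums lie lower, and endothelial and peritubular myoid sums overlap.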

How the data were processed

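Testis RNA of 6 libraries was measured by RNA-seq. Per the labels' protocols, RNA of whole frozen testes was extracted with an RNeasy Mini kit and reads were aligned with STAR, and the submitters' processing notes name the build GRCm38. Per the same notes the authors used DESeq2 1.22.2. Annotation, counting tool and strand setting: not given in the sources used here. Levels per library are in FPKM, which the authors deposited. Per the file headers the table also has log2 fold changes, log2 group levels, −log10 p-values and p-values with an FDR, and of these only the fold change of Cdh1 is quoted. Mutant columns were read as knockout.

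Whole reads were recovered from the steps of the FPKM for 99.95% of genes (tolerance 0.003 reads), with library totals from exon lengths in GENCODE M21, matched for 51.3% of genes with a length. Some recovered values may be a whole fraction of the true reads. Knockout was compared with control on log2(FPKM + 1), using limma 3.58.1 (R 4.3.3, trended prior variance, two-sided) for the 13778 genes averaging 1 FPKM or more, and p-values were adjusted by Benjamini-Hochberg and read at 0.05. The code was tested on simulated data. No replicate pair agreed within sampling noise (mean chi-square per gene 1.69 to 5.00). The members and lists were chosen with earlier results of these data known, so lists are described by counts and medians and not tested. Named genes were all members, the 3 of each related list with the smallest p, and of marker genes the first 2 of a list where single genes are shown, and others are named with their values where a count turns on them. Folds in FPKM are ratios of group means. Alternatives were other pseudocounts, filters, scalings and thresholds, no trend, limma-voom on recovered reads, a replicate block and leaving out each library. Python 3.11.15, pandas 2.3.3 and matplotlib 3.10.9 made the tables and figures.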

Additional observations from a re-analysis of the deposited data

How the results depend on the processing

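Over the 10 junction genes, direction and side of the threshold were kept in 136 of 139 pairings of a gene with an alternative setting. The exceptions were all in Ctnnb1, which never passed the test. Its log2 fold change turned positive under median-ratio scaling (0.0088) and reached 0.0208 without knockout replicate 1. It ranged from -0.0241 to 0.0208 over the settings that left out 1 library. Cdh1 ranged from -1.501 with limma-voom to -0.76 without control replicate 2, with adjusted p of 0.000977 to 0.00414, and could not be fitted at a mean of at least 10 FPKM, where 1 of the junction genes was lower, because it is below that level. With that filter 2954 genes were higher and 1826 lower over the table, and 3 related genes were lower, since fewer genes are tested. Asking also for a change of over 1.5-fold left 1818 genes higher and 1995 lower over the table. It left 5 junction genes higher and 2 lower, and 9 related genes lower. Jam3 and Cdh11 (log2 fold changes 0.50 and 0.26) were the junction genes no longer counted as higher. With no filter on low values 26 related genes were lower. Leaving out each library in turn gave 4318 to 5059 genes higher and 4281 to 4404 lower over the table, 7 junction genes higher and 2 lower each time, and 28 to 31 related genes higher and 13 to 18 lower. The labels do not say whether libraries with the same replicate number share anything else. Same-numbered libraries deviated together with correlations of -0.01, -0.02 and 0.10, and other pairs ran from -0.16 to 0.14. Not every library correlated best with its own number, and 3 libraries per group are too few to settle whether they are paired. The replicate block gave 4762 genes higher and 4597 lower over the table, 7 and 2 junction genes, and 29 and 17 related genes. Depth limits Cdh1 most of the 10, with as few as 32 reads in a library.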
